A study of Mus musculus with 10 samples.

Results

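T and natural killer (NK) cells made up 433 of the 52797 cells kept from the mouse kidney cortex, or 0.820%. A cell counted as one of them when it held transcripts of at least 2 of the 6 genes Cd3d, Cd3e, Cd3g, Nkg7, Gzma and Il7r, and none of C1qa, C1qb, C1qc, Havcr1, Slc12a1 and Pecam1, which mark macrophages, tubule and endothelium. Of the 433 cells, 375 held at least 1 transcript of Cd3d, Cd3e or Cd3g and are called Cd3-positive, and the remaining 58 are called Cd3-negative. A Cd3-negative cell entered the set only through a pair of Nkg7, Gzma and Il7r, so these genes are given as a description. The 6 rule genes were left out of the test of the Cd3 classes. In the comparisons of days they were among the genes tested and enter the totals, but their results are not reported.

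The libraries were single-cell suspensions of kidney cortex from mice 4 weeks of age, sequenced by Drop-seq, in which each cell is captured with a barcoded bead and its transcripts are counted as unique molecular identifiers (UMIs). There was 1 library of normal kidneys, called the control here, 1 each of injured kidneys on days 1, 2 and 4, and 2 each on days 7, 11 and 14. The labels give no kind of injury, sex, strain, genotype or batch, and do not say whether the 2 libraries of a day came from separate animals, so p-values measure the spread between libraries, which may be technical. In the comparisons of days this spread was shared over genes and not taken from each gene. A barcode was kept with at least 500 detected genes and at most 50% mitochondrial UMIs, and 64803 barcodes had been deposited with 7091848 to 31632205 UMIs per library.

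T cells recognise peptides on MHC molecules through a receptor whose surface expression and signalling need the CD3 chains, encoded by Cd3d, Cd3e and Cd3g. CD8 T cells carry the CD8 coreceptor and bind MHC class I, CD4 T cells bind MHC class II, and NK cells kill without a rearranged receptor, guided by activating receptors such as NKp46 (Ncr1) and by MHC-binding receptors of the Klr families. In kidney, T and NK cells are sparse at rest and are known to enter after injury.

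The cells matched their label on genes that the rule did not use. The common leukocyte antigen Ptprc was detected in 294 T and NK cells (67.9%) against 7.49% of all other kept cells, the T and NK cell kinase Lck in 209 (48.3% against 0.686%), and the chemokine Ccl5 in 292 (67.4% against 7.65%). At least 1 of the T cell receptor constant genes Trac, Trbc1 and Trbc2 was detected in 340 cells (78.5%, 95% interval 74.3 to 82.3) against 2.32% of other cells and 1.69% of macrophages. The genes most enriched in detection over the other cells, outside the rule, were Ifng, which encodes interferon gamma, then the NK receptor gene Klrc1, the pore-forming perforin gene Prf1, Klre1, the transcription factor Tbx21, the granzyme Gzmk, Sh2d1a, the granzyme Gzmb, Trbc1 and the chemokine receptor Cxcr6. Klrc2, Cd8b1, Ctsw, Cst7 and Trbc2 completed the leading 15. All intervals on shares are exact (Clopper-Pearson) and cover counting error only, and detection was read from cells of unequal depth. The T and NK cells had median UMI counts of 935 to 1301 per library, against 1252 to 2667.5 in the other cells, so that their higher detection was reached at lower depth. After each cell was thinned to 800 UMIs, which left out 52 T and NK cells, Lck was detected in 34.4% of them against 0.318%.

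The rule genes contributed unequally. Nkg7, a granule membrane protein of cytotoxic lymphocytes, was present in 339 of the cells, Cd3g in 292, Cd3d in 255, Cd3e in 175, the granzyme Gzma in 144 and Il7r, the interleukin 7 receptor chain, in 32. In the GENCODE annotation of GRCm38, Cd3g lies at chr9:44969572-44980431, Cd3d at chr9:44981786-44987339 and Cd3e at chr9:44998740-45009627, next to each other, and Cd3e overlaps the predicted genes Gm48719 and Gm48720. At the edge of the rule, 184 cells held exactly 2 rule genes and 249 held 3 or more, while 360 cells without an excluded gene held exactly 1 and stayed out. Lck was detected in 41.8% of the cells with 2, in 53.0% of those with 3 or more, in 11.4% of those with 1, and in 0.237% of the 32460 cells with none.

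Transcripts of other kidney cells were present in the T and NK cells, and they differed between libraries. The 12 measured proximal tubule genes together stood at 53226 CPM (the usual depth-scaled unit, here UMIs of the genes relative to the summed UMIs of all T and NK cells of a library) in the control and at 52502 and 53738 CPM in the day 14 libraries, against 2015 and 690 CPM in the day 7 libraries. The other cells had the same low point, at 45124 CPM in the control and 5426 and 7157 CPM on day 7. The 13 measured macrophage and monocyte genes stood at 581 CPM in the control T and NK cells, 4128 and 2085 CPM on day 7, and 90.6 to 2517 CPM in the other 7 libraries, the highest of these on day 4. Ly6c2, a gene of this list, alone stood at 477 CPM in the control, 878 and 1107 CPM on day 7, and 90.6 CPM in library 1 of day 11. It was detected in 47.5% of Cd3-positive cells against 9.82% of the other cells, so this sum does not measure other cell types alone. At least 3 of 5 proximal tubule markers were found in 53 of the 433 cells (12.2%), with between 0 and 50% per library. At least 2 B cell genes were found in 2 cells and at least 2 neutrophil genes in 3. Among macrophages, defined by at least 2 of C1qa, C1qb and C1qc, 29 of 3076 cells (0.943%) met the marker part of the rule, as did 79 of 31635 proximal tubule-like cells (0.250%). These 79 include the 53 T and NK cells with proximal tubule markers, so they are no separate background. Free RNA and cells caught together were not separated, no doublet caller was run, and their part in the values was not tested. One T or NK cell carried a barcode that also occurred in another library, among 62 such barcodes in all.

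T and NK cells were most frequent on day 7. They numbered 24 of 6134 kept cells in the control, a share of 0.391% (95% interval 0.251 to 0.582). The share was 0.561% on day 1 (20 cells), 0.881% on day 2 (36 cells) and 0.545% on day 4 (35 cells). On day 7 it was 1.52% in library 1 (55 cells, 1.15 to 1.97) and 4.02% in library 2 (207 cells, 3.50 to 4.59). Day 11 had 0.222% and 0.227%, with 12 cells in each library, and day 14 had 0.375% (26 cells) and 0.0970% (6 cells). Both day 7 libraries lay above every other library, and the intervals of the 2 day 7 libraries did not overlap. The interval of day 2 (0.618 to 1.22) overlapped that of library 1 of day 7. The mean was 2.77% ± 1.77 (SD, n = 2) on day 7, 0.224% ± 0.004 (n = 2) on day 11 and 0.236% ± 0.196 (n = 2) on day 14. With 2 libraries against 2, the smallest two-sided p of an exact permutation test is 0.333, so the shares were not tested. Day 7 contributed 262 of all 433 cells (60.5%), and library 2 of that day alone 207.

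Cd3-positive cells accounted for most of the day 7 share. They formed 1.38% and 3.88% of the kept cells on day 7, against 0.310% in the control and at most 0.514% in the other libraries. Cd3-negative cells formed 0.138% and 0.136% of the kept cells on day 7, close to each other, and reached 0.367% on day 2. Their number by library was 5 in the control, 7 on day 1, 15 on day 2, 11 on day 4, 5 and 7 on day 7, none in either day 11 library, and 6 and 2 on day 14. A count of 0, taken as at most 3 counts, allows up to 0.0555% and 0.0568% of the kept cells in the 2 day 11 libraries, and the exact intervals end at 0.0682% and 0.0698%. As a share of the T and NK cells, Cd3-negative cells were 20.8% in the control, 35.0% on day 1, 41.7% on day 2, 31.4% on day 4 and 6.24% ± 4.04 (SD, n = 2) on day 7. A missing Cd3 transcript at these depths does not show that the protein was missing. Macrophages were also most frequent on day 7, at 25.1% and 26.4% of the kept cells against 0.766% in the control, so that there were 6.06 and 15.2 T and NK cells per 100 macrophages on day 7 and 51.1 in the control.

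**Figure D1:**
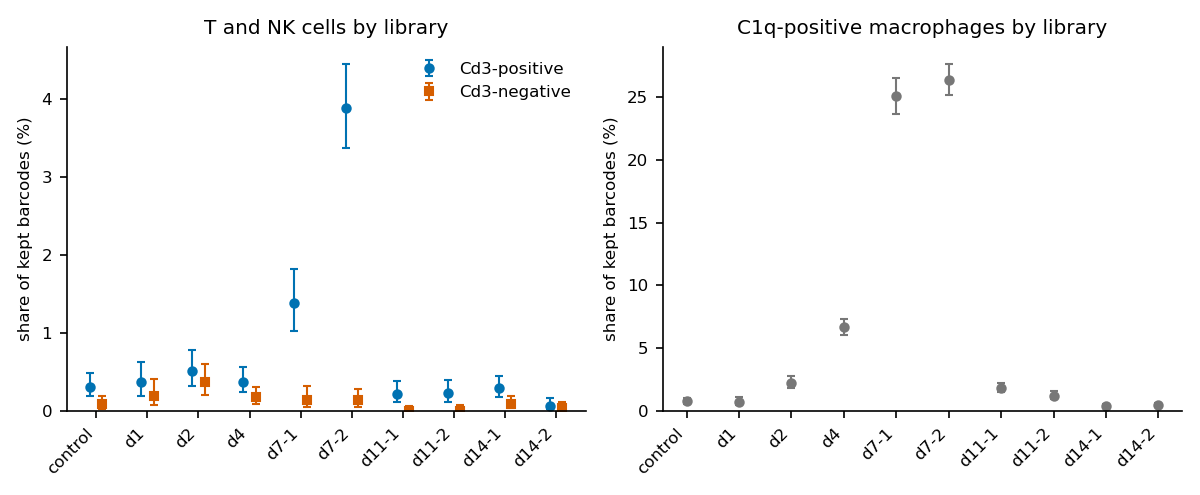
Left, share of kept cells (%) that were Cd3-positive (circles) or Cd3-negative (squares) T and NK cells in each of the 10 libraries (d7-1 is library 1 of day 7). Right, the same for C1q-positive macrophages. Bars are exact 95% intervals. Cd3-positive cells reached 1.38% and 3.88% in the day 7 libraries, while Cd3-negative cells were highest on day 2 at 0.367%.

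Several NK receptor genes were detected in a larger share of the Cd3-negative class, and several T cell genes in a larger share of the Cd3-positive class. Ncr1, the gene of the NK receptor NKp46, was detected in 29 of the 58 Cd3-negative cells (50%) and in 7 of the 375 Cd3-positive cells (1.87%). Prf1 was detected in 46.6% against 5.07%, the NK receptor genes Klrb1c in 31.0% against 1.60% and Klra3 in 29.3% against 1.07%, and the signalling adaptors Fcer1g in 60.3% against 9.07% and Tyrobp in 56.9% against 6.67%. In the other direction, Trac was detected in 5.17% of Cd3-negative and 51.5% of Cd3-positive cells, the T cell adaptor Lat in 1.72% against 30.7%, Thy1 in 10.3% against 49.6% and Cxcr6 in 3.45% against 41.1%. Cd5 and the costimulatory receptor Icos were not detected in the Cd3-negative cells, against 14.7% and 13.9% of the Cd3-positive cells. Other NK receptor genes were also common in Cd3-positive cells: Klrd1 was detected in 27 Cd3-negative (46.6%) and 77 Cd3-positive cells (20.5%), Klrk1 in 34.5% and 13.9%, Klrc1 in 10.3% and 16.3%, and Klrc2 in 12.1% and 16%. Further genes did not separate the classes to the degree of Ncr1 or Trac: Trbc1 was detected in 37.9% and 50.1%, Lck in 34.5% and 50.4%, and the protease Ctsw in 34.5% and 34.4%. Cells with Ncr1 were thus mostly Cd3-negative, but 27 of the 58 Cd3-negative cells held a T cell receptor constant transcript.

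**Figure D2:**
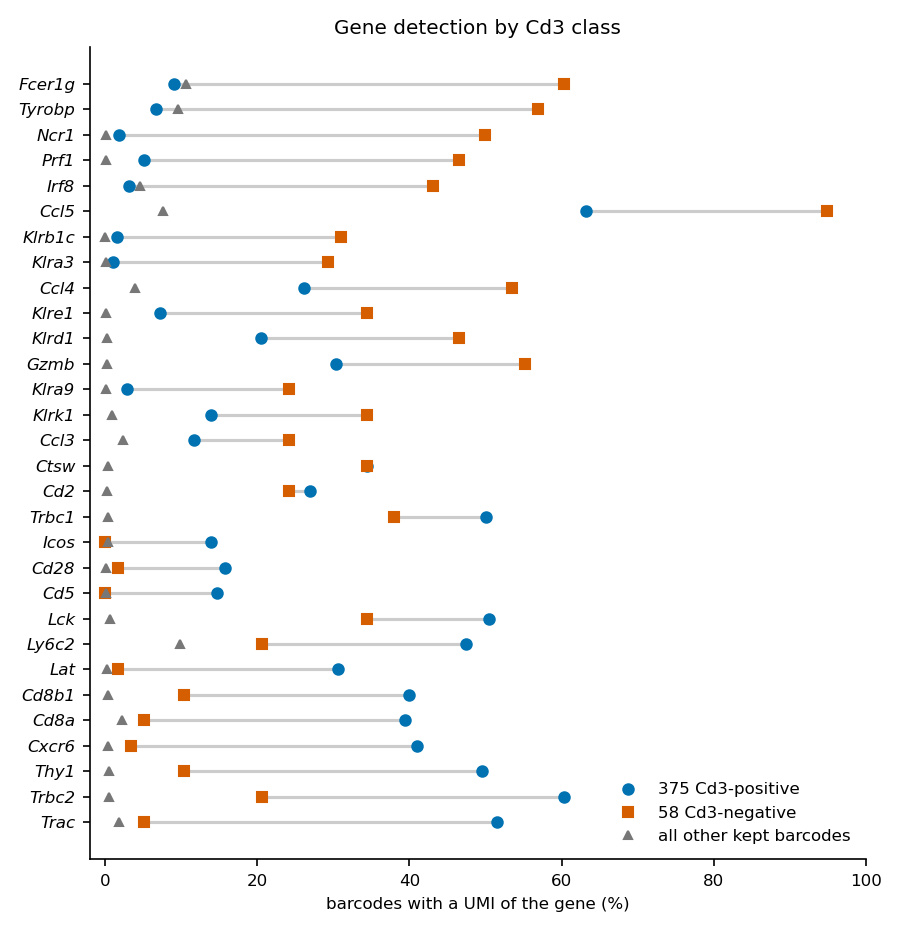
Share of cells (%, horizontal axis) with at least 1 UMI of each of 30 genes in the 375 Cd3-positive cells (circles), the 58 Cd3-negative cells (squares) and all other kept cells (triangles), summed over libraries. Ncr1 stands at 50% in Cd3-negative and 1.87% in Cd3-positive cells, and Trac at 5.17% and 51.5%.

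To set this contrast against the spread between libraries, counts were summed per class within each library, and the classes were compared with the library as a block. The quasi-likelihood test of edgeR was used, with p-values adjusted after Benjamini and Hochberg and a threshold of 0.05. A Cd3-negative cell had to hold 2 of Nkg7, Gzma and Il7r, whereas 2 Cd3 genes sufficed for a Cd3-positive cell. Genes expressed together with either set are thus not independent of the rule, and their calls are no separate test of what the classes are. Over the 2 libraries with at least 10 cells of each class, days 2 and 4, it called 5 of 477 genes (1.05%), 4 higher (0.839%) and 1 lower (0.21%) in Cd3-negative cells. Higher in Cd3-negative cells were Klra3 (log2 difference 5.33 ± 0.81 SE, adjusted p = 0.0342), Irf8, an interferon regulatory factor (3.82 ± 0.66, adjusted p = 0.0466), and the chemokines Ccl3 (3.49 ± 0.60, adjusted p = 0.0466) and Ccl4 (2.55 ± 0.38, adjusted p = 0.0342), and Ly6c2 was lower (-4.43 ± 0.63, adjusted p = 0.0342). DESeq2 called 1 of the 477 genes, and among the 391 genes with a higher level in T and NK cells than in the other cells edgeR called none, with 26 at an unadjusted p under 0.05. With the 7 libraries that had at least 5 cells of each class, a choice made after the data were seen, 12 of 675 genes (1.78%) were called, 9 higher (1.33%) and 3 lower (0.444%). Of 8 NK receptor and adaptor genes tested, 6 were higher and none lower in Cd3-negative cells, with a median log2 difference of 3.34 against -0.06 over all genes tested. These were Klra3 (5.10 ± 0.90), Klrb1c (4.10 ± 0.96), Ncr1 (4.05 ± 0.71), Klra9 (3.81 ± 0.90), Tyrobp (2.86 ± 0.51) and Fcer1g (2.78 ± 0.44). Prf1 (4.39 ± 0.63), Irf8 (4.45 ± 0.79) and Ccl4 (2.07 ± 0.46) were also higher, while Trac (-3.75 ± 0.70), Trbc2 (-1.93 ± 0.46) and the interferon-induced Ifi27l2a (-1.83 ± 0.42) were lower. The adjusted p of these 12 genes in that edgeR test, after Benjamini-Hochberg adjustment, ranged from 0.00162 for Prf1 to 0.0379. Prf1, Ncr1 and Irf8 passed the threshold in all 10 alternatives to the 7-library fit, and Klra3 in all 7 in which it could be tested. The call was lost in 6 of 10 alternatives for Ccl4, 4 of 10 each for Trbc2 and Ifi27l2a, 4 of 7 for Klrb1c, 3 of 8 for Klra9, 2 of 10 for Tyrobp, and 1 of 10 each for Fcer1g and Trac. Without the control, day 2 or day 4 library the 12 calls became 7, 5 and 5. Klra genes have close relatives in sequence, as has Ly6c2, so the split of reads between family members is uncertain. Tyrobp and Fcer1g were also detected in 84.3% and 88.2% of macrophages, whereas Ncr1 was detected in 0.130% and Prf1 in 0.0650% of them.

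Cells with an Ncr1 transcript were most frequent among T and NK cells on days 2 and 4. They numbered 4 of 24 T and NK cells in the control (16.7%), 2 of 20 on day 1, 12 of 36 on day 2 (33.3%), 8 of 35 on day 4 (22.9%), 1 of 55 and 5 of 207 on day 7 (1.82% and 2.42%), 0 of 12 in both day 11 libraries, and 3 of 26 and 1 of 6 on day 14. A count of 0 of 12 cells allows a share of up to 25% by the limit of 3 counts and 26.5% by the exact interval, for cells with a UMI at this depth. At most 0.392% of the other cells of any library held an Ncr1 UMI.

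CD8 transcripts marked most Cd3-positive cells of day 7 and few of the control. Cd8a or Cd8b1, the 2 chains of the CD8 coreceptor, was detected in 209 T and NK cells, and Cd4 in 23, with 1 cell holding both. Among Cd3-positive cells the CD8 share was 10.5% in the control (2 of 19 cells, 95% interval 1.30 to 33.1), 61.5% on day 1 and 57.1% on day 2. On day 4 it was 29.2%. It was 68.0% (53.3 to 80.5) and 65.5% (58.5 to 72.1) in the day 7 libraries, 16.7% and 0% on day 11, and 15% and 50% on day 14, the last from 4 cells. The day 7 intervals did not overlap that of the control or of the larger day 14 library. The other kept cells held a CD8 transcript in 0.217% to 7.40% of cases, with the highest share also on day 7. Cd4 was detected in 4 of 24 cells in the control, in 1 of 55 and 11 of 207 on day 7 and in 2 of 12 in the first day 11 library, counts that do not give an order of the days. A constant gene of the gamma chain of the gamma-delta T cell receptor was detected in 33 cells, among them 3 of 24 in the control, 19 of 207 in library 2 of day 7 and 4 of 12 in library 2 of day 11. Foxp3, the regulatory T cell factor, was detected in 7 cells, of which 4 came from library 2 of day 7.

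**Figure D3:**
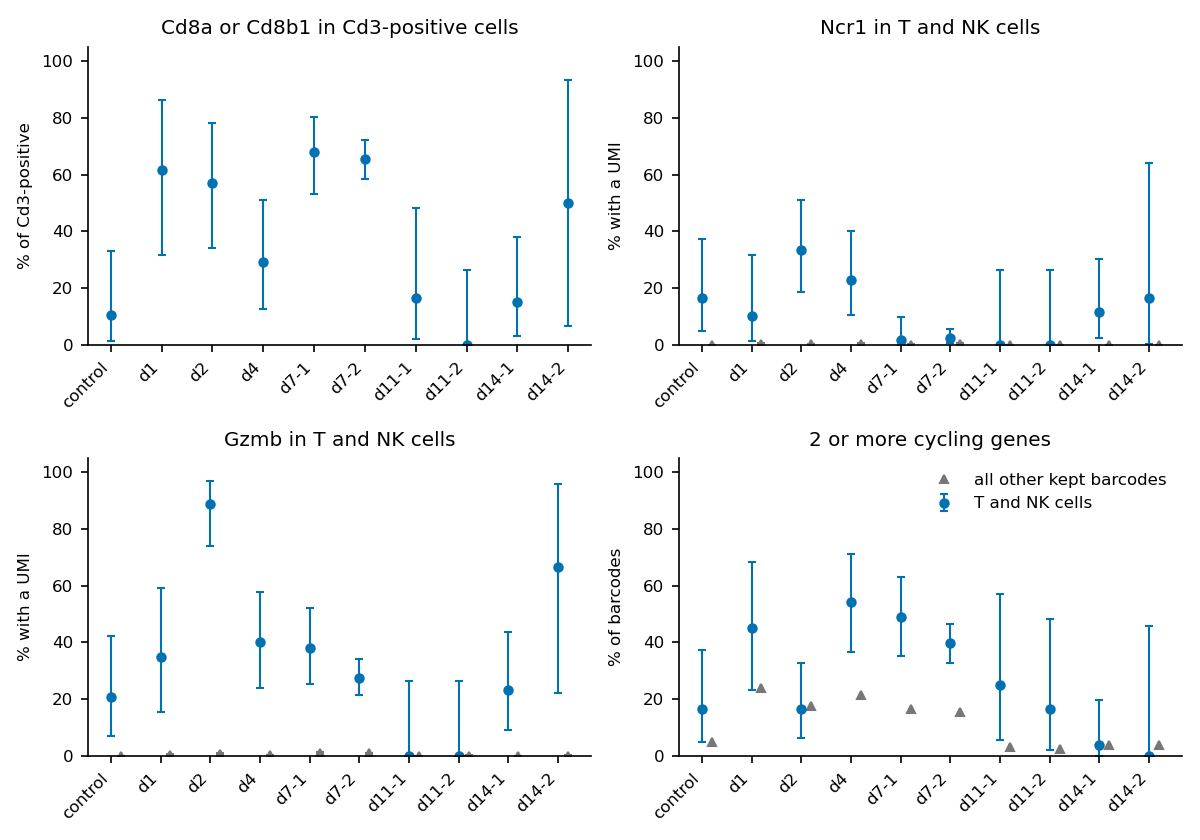
Share of cells (%) by library with Cd8a or Cd8b1 among Cd3-positive cells, with Ncr1 and with Gzmb among all T and NK cells, and with at least 2 cycling genes (circles, with exact 95% intervals; triangles, all other kept cells). CD8 transcripts were found in 68.0% and 65.5% of Cd3-positive cells on day 7, and Gzmb in 88.9% of T and NK cells on day 2.

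Within the Cd3-positive cells of day 7, the cells with and without a CD8 transcript differed in several genes in the same direction in both libraries. Ctsw was detected in 35.3% and 53.4% of the 34 and 131 cells with CD8, and in 6.25% and 27.5% of the 16 and 69 cells without. Ccl4 was detected in 23.5% and 39.7% with CD8 and in 12.5% and 13.0% without, Gzmb in 44.1% and 32.8% against 25% and 17.4%, Cxcr6 in 38.2% and 61.8% against 31.2% and 27.5%, and the activating receptor Cd226 in 32.4% and 29.8% against 0% and 15.9%. Cd4 was detected in 6.25% and 13.0% of the cells without CD8 and in 0% and 0.763% of those with it. These genes were chosen after their values were seen. Ccl5 had no shared direction, at 55.9% with and 81.2% without CD8 in library 1 and 88.5% and 47.8% in library 2. Cells with CD8 were deeper, with median UMI counts of 1139 and 1316 against 858 and 1114, and these differences were not tested.

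Gzmb and the interferon response genes were highest on day 2. Gzmb was detected in 32 of the 36 T and NK cells of day 2 (88.9%, 73.9 to 96.9), against 5 of 24 in the control, 7 of 20 on day 1, 14 of 35 on day 4, 21 of 55 and 57 of 207 on day 7, 0 of 12 in both day 11 libraries, and 6 of 26 and 4 of 6 on day 14. Its level was 4217 CPM on day 2 and 207, 831, 472, 699, 803, 0, 0, 310 and 864 CPM in the other libraries in the order of days. In no library did more than 1.07% of the other cells hold a Gzmb UMI. The 12 cytotoxic granule genes together stood at 6476 CPM on day 2 and at 1478 to 3263 CPM in the other 9 libraries. Gzmb alone held 4217 CPM of the day 2 sum, and without Gzmb the list was not highest on day 2. The 18 cytokine and chemokine genes stood at 11709 CPM on day 2, with Ccl5 at 6739 CPM, Ccl4 at 2165 CPM and the dendritic cell attractant Xcl1 at 1807 CPM, and at 1178 to 6809 CPM elsewhere. Day 2 had 1 library and was the one with most Cd3-negative cells, and no test of day 2 was made. Gzma, a granzyme gene of the rule, was present in 30 of its 36 T and NK cells. Genes expressed together with Gzma are not independent of the rule.

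The 18 interferon response genes stood at 14551 CPM in the T and NK cells of day 2 and at 589 to 6813 CPM in the other libraries. Isg15, a ubiquitin-like protein induced by interferon, was detected in 25 of 36 cells on day 2 and in 19 of the 397 cells of the other libraries. Ifit1 was detected in 21 of 36 on day 2, Ifit3 in 22 and Usp18 in 15, and none of the 3 in the control or on day 1. The same genes were high in the other cells of that library, where the list stood at 11015 CPM, against 1216 to 5689 CPM in the other libraries. High day 2 values were thus seen in both populations. MHC class I and antigen processing genes, of which B2m is the invariant chain, stood at 19201 CPM in T and NK cells on day 2, between 12598 and 15859 CPM on days 4 and 7, and at 5870 CPM in the control. The neutrophil genes stood at 2127 CPM in the T and NK cells of day 2 and at most 362 CPM in the other libraries, with S100a8 in 5 and S100a9 in 6 of the day 2 cells, and their part in the day 2 values was not tested.

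**Figure D4:**
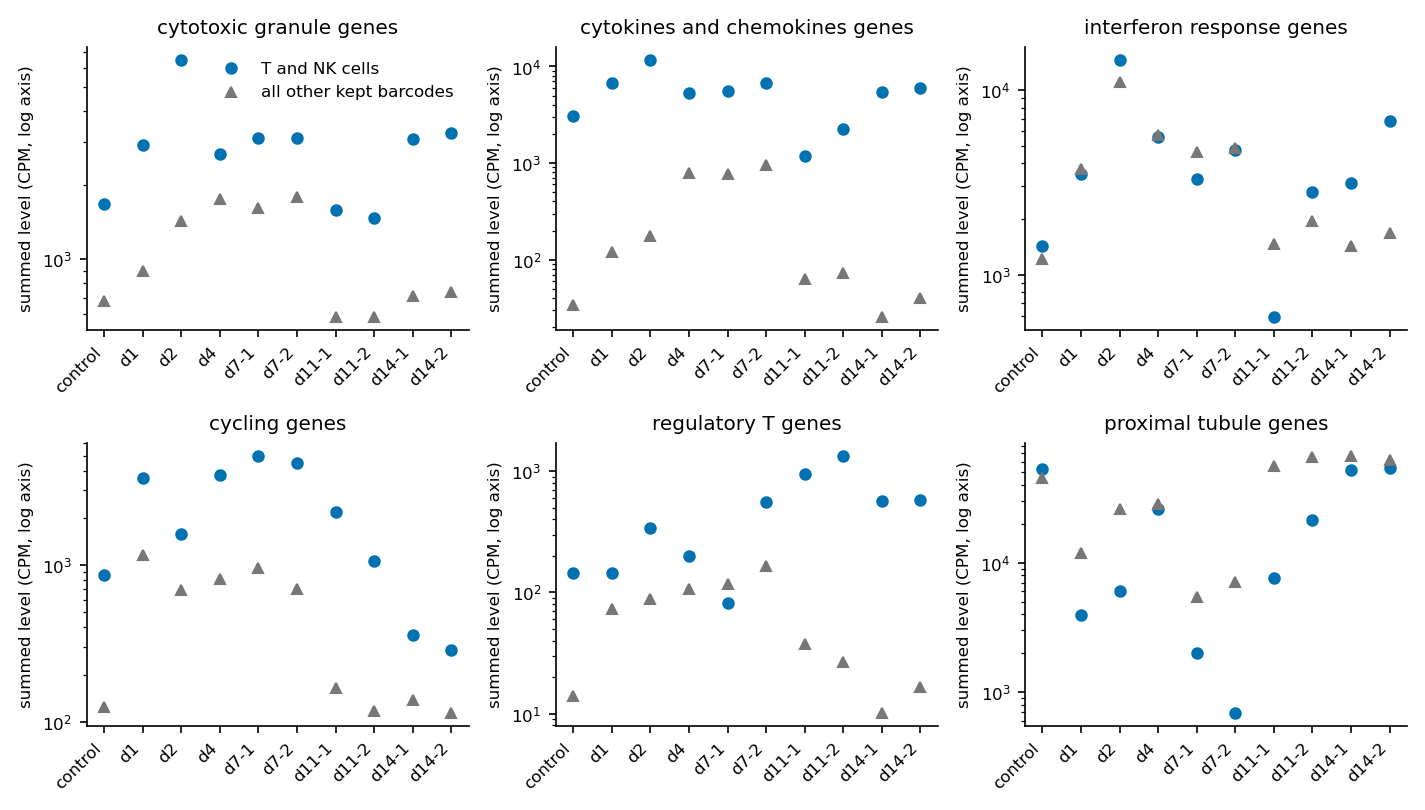
Summed level (CPM, log axis) of 6 gene lists in the T and NK cells (circles) and in all other kept cells (triangles) of each library. Cytokine and interferon genes were highest on day 2, the latter in both populations (14551 and 11015 CPM), and proximal tubule genes were lowest on day 7 in both. The cytotoxic sum was also highest on day 2 (6476 CPM), with 4217 CPM of it from Gzmb alone.

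Proliferation genes were most frequent on days 1, 4 and 7. At least 2 of 25 cycling genes were detected in 54.3% of the T and NK cells of day 4, in 49.1% and 39.6% on day 7 and in 45% on day 1. The share was 16.7% in the control and on day 2, 25% and 16.7% on day 11, 3.85% in library 1 of day 14 and 0 of 6 cells in library 2, which allows up to 50% by the limit of 3 counts and 45.9% by the exact interval. After thinning to 800 UMIs the shares were 50% on day 4, 43.9% and 36.4% on day 7, 31.6% on day 1, 13.0% in the control and 3.85% in library 1 of day 14, while the thinned shares of other cells were 0.710% in the control and at most 12.2%. Without thinning, the other cells reached 23.9% on day 1 and macrophages 71.7% on day 2. The order of the Cd3 classes differed between libraries. On day 4, 15 of 24 Cd3-positive and 4 of 11 Cd3-negative cells were cycling, on day 2, 3 of 21 and 3 of 15, and in library 1 of day 7, 24 of 50 and 3 of 5. In library 2 of day 7 the cycling share was 40.5% of the cells with CD8 and 40.6% of those without, and in library 1 it was 55.9% and 31.2%.

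Day 7 was next compared with the control on counts summed over all T and NK cells of a library. The fit used the 7 libraries with at least 20 such cells and took its spread from the only pair among them, day 7, with 1 residual degree of freedom, so the lone control was assumed to vary like the day 7 pair. edgeR's quasi-likelihood test called 292 of 1815 genes (16.1%), 78 higher (4.3%) and 214 lower (11.8%) on day 7. Here and in the later comparisons of days, edgeR gave every gene the spread of a trend over all genes (infinite prior degrees of freedom). A gene's own spread between libraries thus did not enter its p-value. In a control of 24 cells and 48210 UMIs, many genes had no count at all, and for these the change is given as a bound against 3 counts in the control.

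Genes of the CD8 coreceptor were higher on day 7. Cd8a stood at 0 CPM in the control and at 504 and 625 CPM on day 7, at least 9.74-fold higher (adjusted p = 3.85e-06, edgeR's quasi-likelihood test), and Cd8b1 at 83.0 against 471 and 533 CPM (log2 change 2.36 ± 0.74 SE, adjusted p = 0.0122). The 2 day 7 libraries lay close together and well above the control. In DESeq2, with at least 3 rule genes required, and without the 5% of cells with most UMIs, Cd8a had adjusted p-values of 0.178, 0.0858 and 0.105. Of 14 T cell receptor and T lineage genes, 2 were higher and 1 lower, beside 4.3% and 11.8% of all genes tested, with a median of 0.99 against 0.13 over all genes. Thy1 was at 104 CPM in the control and 488 and 840 CPM on day 7 (2.48 ± 0.69, adjusted p = 0.00347 in edgeR's quasi-likelihood test), Trbc2 was at 249 against 845 and 1018 CPM (1.67 ± 0.58, adjusted p = 0.0298 in the same edgeR test), and Ms4a4b, a membrane protein of T cells, was lower, at 519 against 81.3 and 95 CPM (-2.72 ± 0.59, adjusted p = 7.84e-05 in edgeR). The call was lost in 7 of 14 alternatives for Cd8b1, 6 of 14 for Thy1, 10 of 14 for Trbc2 and 2 of 13 for Ms4a4b. Without library 1 of day 14, edgeR gave adjusted p-values of 0.0862 for Cd8b1, 0.103 for Thy1 and 0.122 for Trbc2, and without the day 2 library 0.0816 for Trbc2.

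Of 13 NK receptor genes tested, none was higher and 2 were lower on day 7, where 11.8% of all genes tested were lower, with a median of -1.32 against 0.13. These levels are relative to all T and NK cells, of which Cd3-negative cells were 20.8% in the control and 6.24% on day 7 (mean, n = 2). As a share of kept cells, Cd3-negative cells were 0.0815% in the control and 0.138% and 0.136% on day 7. The part of this mix in the NK receptor values was not tested. Ncr1 stood at 124 CPM in the control and 16.3 and 21.5 CPM on day 7 (-2.75 ± 0.93, adjusted p = 0.0235 in edgeR's quasi-likelihood test), and Klra5 at 394 CPM against 0 and 49.1 CPM (-3.65 ± 0.90). The call was lost in 7 of 11 alternatives for Ncr1 and 2 of 12 for Klra5, in both genes without library 1 of day 14 (edgeR adjusted p = 0.0904 and 0.0791), and for Ncr1 also without the day 2 library (0.0947). Of 8 cytotoxic granule genes, none was called in either direction, with Gzmb at 207 against 699 and 803 CPM. Of 9 cycling genes, 4 were higher and none lower, with a median of 2.64 as fitted and 2.04 with genes at 0 in the control set to their bound. Top2a, the DNA topoisomerase of dividing cells, stood at 83.0 CPM in the control and 991 and 653 CPM on day 7 (3.0 ± 0.72, adjusted p = 0.000475 in edgeR's quasi-likelihood test). Birc5, which acts in cell division, was at 0 CPM against 244 and 258 CPM, at least 4.10-fold higher, and the cyclin gene Ccnb2 at least 2.74-fold higher. The early activation antigen Cd69 was also at 0 in the control and at least 2.03-fold higher, a call lost in 9 of 12 alternatives, among them those without the day 2 library or library 1 of day 14 (edgeR adjusted p = 0.141 and 0.171). Of the 14 interferon response genes none was called; 8 had no count in the control, and the fitted median of 4.17 became -0.27 with those genes at their bound.

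Genes of other cells took part in this comparison. All 11 proximal tubule genes tested were lower on day 7, among them Kap, at 27276 CPM in the control against 48.8 and 187 CPM, and Miox, and outside the list the tubular transporter genes Slc22a6 and Slco1a6 and the enzyme gene Inmt. With no count on day 7, Slc22a6 was lower by at least 77.7-fold. In the control its 29 UMIs came from 4 of 24 cells. The 14 control UMIs of Slco1a6 came from 2 cells and the 21 of Inmt from 3. The macrophage genes Lyz2 (0 CPM against 1187 and 386 CPM) and Apoe (0 against 1382 and 242 CPM), the MHC class II gene H2-Eb1 and the injured tubule genes Lcn2, Clu and Spp1 were higher. The globin gene Hba-a1 stood at 0 CPM in the control and at 536 and 27.6 CPM on day 7, so library 1 held most of it, and its call was lost in 6 of 12 alternatives. Lyz2 and Apoe were higher in library 1 than in library 2 of day 7. Of the T and NK cells, 9 of 24 in the control and 1 of 262 on day 7 also held at least 3 of 5 proximal tubule markers. The part of free RNA or of joined cells in these calls was not tested. When the genes were limited to the 1431 with a higher level in T and NK cells than in the other cells, 13 were called. Cd8a (adjusted p = 0.0292 in edgeR's quasi-likelihood test) and Miox were among them, while Birc5 was not (adjusted p = 0.104). This filter averaged the libraries of the fit, day 7 and the control included, so passing it is no added support. Miox lay above the other cells in the control (4688 against 1215 CPM). On day 7 it lay below them, at 32.5 and 12.3 CPM against 48.2 and 176 CPM. Cd8a was at 0 CPM in the control, below 2.28 CPM in the other cells. DESeq2 called 24 genes, 14 were called with at least 3 rule genes required, 157 among Cd3-positive cells alone, 7 without the 5% of cells with most UMIs, and 128 without library 1 of day 14, which contributes to the fit. The splicing factor gene Cwc22, at 0 in the control and at least 6.55-fold higher on day 7, overlaps the gene model Gm13727.

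**Figure D5:**
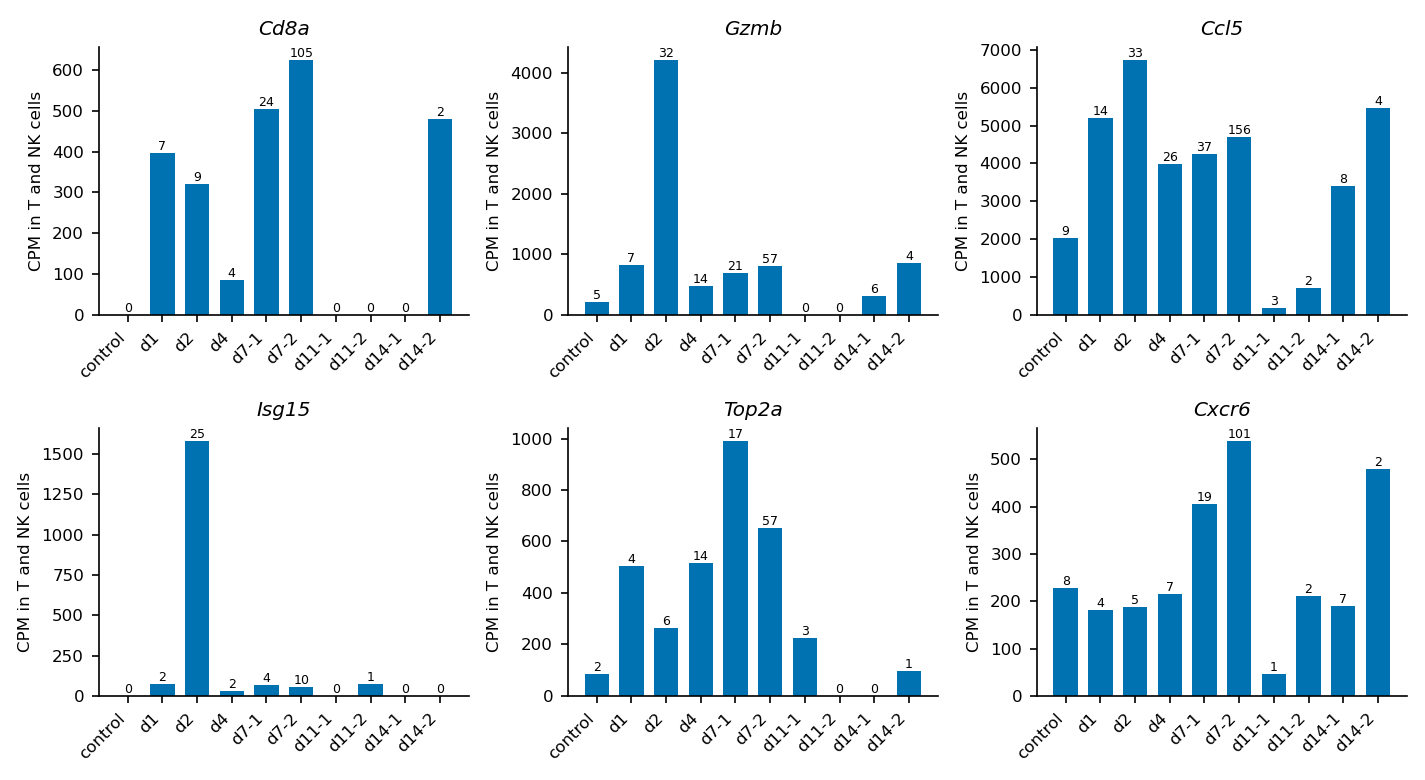
Level (CPM of the summed UMIs of the T and NK cells) of 6 genes by library, with the number of cells holding a UMI above each bar. Cd8a was at 0 CPM in the control and in 3 of the 4 libraries of days 11 and 14, and Gzmb was at 4217 CPM on day 2 and 0 CPM on day 11.

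On day 11, Gzmb, Cd8a and Ccl5 were lower in T and NK cells than on day 7. They were the only gene called of 8 cytotoxic granule genes, of 2 coreceptor genes and of 7 cytokine and chemokine genes tested, respectively. Both day 11 libraries had only 12 such cells, all Cd3-positive, so the comparison with day 7 used the libraries with at least 10, a choice made after the data were seen, with 2 residual degrees of freedom. Of these 12 cells, 6 in library 1 and 5 in library 2 also held at least 3 of 5 proximal tubule markers. On day 7 this was so for 1 of 55 and 0 of 207 cells. The part of such cells in the result was not tested. edgeR's quasi-likelihood test called 134 of 2010 genes (6.67%), 65 higher (3.23%) and 69 lower (3.43%) on day 11. Gzmb stood at 699 and 803 CPM on day 7 and at 0 in both day 11 libraries, at least 9.51-fold lower (adjusted p = 3.06e-07 in edgeR's quasi-likelihood test), and it passed in all 19 alternatives. Cd8a went from 504 and 625 CPM to 0 and 0, at least 7.33-fold lower, and Ccl5 from 4242 and 4690 CPM to 181 and 704 CPM, a 12-fold difference (-3.61 ± 0.44, adjusted p = 1.61e-13 in edgeR). For these 3 genes the libraries of the 2 days did not overlap. For the gene Cd8a the threshold was missed in DESeq2 (adjusted p = 0.0548) and with at least 3 rule genes (adjusted p = 0.0914).

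Of 15 T cell receptor and T lineage genes 2 were lower and 1 higher (median -0.36 against -0.12 over all genes), of 13 NK receptor genes 1 was lower and none higher (0.02), and of 11 trafficking genes 2 were lower and 1 higher (-1.08), beside 3.43% lower and 3.23% higher over all genes. The called genes that were lower included Thy1 (14.2-fold, counting interval 3.90 to 118), the NK receptor gene Klrd1 (11.1-fold, 1.96 to 443), Cxcr6 (4.70-fold), the integrin gene Itga4 (4.93-fold, 1.66 to 24.2), Top2a (5.13-fold), Mki67 (4.46-fold, 1.5 to 21.9), the MHC class I gene H2-Q7 (9.68-fold), the immunoproteasome gene Psmb9 and the T lineage factor Bcl11b (at least 2.59-fold). Plac8 was at least 4.62-fold lower. Ms4a4b (6.23-fold), Rgs2, a regulator of G protein signalling (4.72-fold), and Nfkbia, an inhibitor of NF-kB (3.09-fold), were higher. Each of these 13 calls was lost without at least 1 library of day 7 or day 11, whereas Ccl5, like Gzmb, passed in all 19 alternatives. For Klrd1, Cxcr6, Itga4, Mki67 and Bcl11b this held for each of the 4 libraries left out in turn (edgeR adjusted p from 0.059 to 0.509), and with the library number as a block (0.0744 to 0.169). Rgs2 was also lost with the block (adjusted p = 0.0982). Of 8 cycling genes 2 were lower and none higher (median -1.51 against -0.12 over all genes), and of 13 interferon genes 3 were lower, beside 3.43% of all genes tested (median -1.75, or -0.65 with genes at 0 at their bound). None of the 6 regulatory T cell genes tested was called, although all 6 had positive differences with a median of 1.28. Their summed level was 951 and 1337 CPM on day 11 and 81.3 and 561 CPM on day 7, from 24 cells on day 11 in all. Proximal tubule genes were higher on day 11 in 10 of 11 cases, at 7612 and 21470 CPM in total against 2015 and 690 CPM. Macrophage and monocyte markers were lower in 3 of 4 cases (median -3.98, or -2.78 with genes at 0 at their bound), with Ly6c2 among the 3. Injured tubule markers were lower in 3 of 5 cases (-5.66, or -1.38). Of 3 tested genes of the dendritic cell list only the MHC class II gene H2-Eb1 was lower. The part of these markers in the result was not tested. When only genes with a higher level in T and NK cells than in the other cells were tested, 67 of 843 were called, and Gzmb, Cd8a, Cwc22 and Plac8 were among them. This filter averaged the libraries of the fit, day 7 included, so passing it is no added support. In both day 11 libraries Cd8a, Cwc22 and Plac8 were at 0 CPM and below the other cells. With the library number as a block 83 genes were called, and DESeq2 called 24. Without library 1 of day 7, library 2 of day 7 or library 2 of day 11 the 134 calls became 64, 33 and 39.

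On day 14, few T and NK cells held proliferation transcripts. Only library 1 of day 14 had at least 20 T and NK cells (26), and it was compared with day 7 in the fit of 7 libraries, with 1 residual degree of freedom. edgeR's quasi-likelihood test called 240 of 1815 genes (13.2%), 167 higher (9.2%) and 73 lower (4.02%). Of 9 cycling genes 7 were lower and none higher, and their median was -7.05 as fitted and -1.82 with genes at 0 at their bound, against -0.11 over all genes. Top2a stood at 991 and 653 CPM on day 7 and 0 CPM in library 1 of day 14, at least 9.89-fold lower, while library 2, which was not in the fit, had 96.0 CPM from 1 cell. Mki67 (at least 5.16-fold), Nusap1 (at least 4.19-fold) and Rrm2 (at least 3.54-fold) were lower, as were Cd8a (at least 8.48-fold) and Gzmk (at least 2.63-fold). In library 2 of day 14 Cd8a was detected in 2 of the 6 cells and stood at 480 CPM, close to the 504 and 625 CPM of day 7. None of the 14 T lineage genes was called, nor any of the 6 cytokine genes, with Ccl5 at 3406 CPM in library 1 of day 14. The immediate early genes Junb (1.93 ± 0.47) and Btg2 (2.67 ± 0.57) and the NK receptor gene Klra1 (3.48 ± 1.15) were higher. The call was lost in 7 of 11 alternatives for Gzmk, 7 of 10 for Klra1 and 4 of 14 each for Junb and Btg2, among them the fit without the day 2 library for Gzmk and Klra1 (edgeR adjusted p = 0.065 and 0.0885) and the one without the control for Gzmk (0.0558). All 11 proximal tubule genes were higher as well, and Kap, Slc22a6, Abcg2 and Slc13a3 were among the genes with the largest increases. Of the 26 cells of library 1 of day 14, 8 also held at least 3 of 5 proximal tubule markers. In library 1 of day 14, Kap was found in all 26 cells, but the 13 UMIs each of Abcg2 and Slc13a3 came from 1 cell and the 21 UMIs of Slc22a6 from 2. Of the dendritic cell list, the 4 genes tested were the MHC class II genes H2-Aa, H2-Ab1 and H2-Eb1, and Cd74. All 4 were lower (median -7.17, or -1.55 with genes at 0 at their bound). This list stood at 16552 CPM in macrophages against 1420 CPM in all other kept cells, so it does not point to dendritic cells. Injured tubule markers were lower in 3 of 5 cases (-6.56, or -2.37), macrophage and monocyte markers in 2 of 4 (-5.55, or -2.35) and erythrocyte markers in 2 of 4 (-6.91, or -0.36). The part of all these markers in the result was not tested. The number of calls was 17 in DESeq2, 33 with at least 3 rule genes, 157 without the day 2 library, 2 among Cd3-positive cells alone, and 10 among genes with a higher level in T and NK cells than in the other cells, Top2a and Cd8a among the 10. Without the 5% of cells with most UMIs edgeR's quasi-likelihood test called none, with 249 genes at an unadjusted p under 0.05, and the adjusted p was 0.112 for Top2a and 0.122 for Cd8a. The filter for a higher level in T and NK cells averaged the libraries of the fit, day 7 included, so passing it is no added support. In library 1 of day 14 Top2a and Cd8a were at 0 CPM, below 5.38 and 1.11 CPM in the other cells. The comparison of day 14 with day 7 shares its day 7 libraries with those of day 7 against the control and of day 11 against day 7.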

How the data were processed

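Kidney cortex cells of 10 Drop-seq libraries were analysed. The authors deposited a table of UMI counts per gene and barcode for each library. Reads were aligned with Bowtie2 2.2.7 to mm10 per the submitters' processing notes, and the counter, annotation and barcode filter are not given in the sources used here. That the deposited counts are unnormalised was read from their whole numbers and unequal totals.

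Barcodes under 500 genes or above 50% mitochondrial UMIs were left out, and T and NK cells were chosen by the 6 marker and 6 excluded genes. The members and gene lists were chosen with earlier results of these data known. Doublets were not called. Counts were summed per library, libraries with at least 20 T and NK cells entered, genes passed filterByExpr, and TMM-normalised sums were compared with edgeR 4.0.16 (quasi-likelihood, Benjamini-Hochberg, 0.05), which was tested on simulated data. There it recovered 22.5% of log2 changes of 2 for day 7 against the control, 43.3% for day 14 and 30.9% for day 11. For log2 changes of 3 it recovered 72.6%, 74.0% and 76.0%. A gene not called can therefore have changed. The simulation gave all genes the same spread, unlike the data. DESeq2 1.42.0 was an alternative. Errors of log2 changes are the change divided by the square root of F. Genes at 0 in a group were bounded against 3 counts over the group. The rule for named genes took, per test, up to 12 called genes of the lists by size of change, the 5 largest called changes per direction at a mean log2 CPM of at least 6, and the 15 genes most enriched in detection. A gene that this rule took is not reported here. Other named genes are examples chosen after their values were seen. The T and NK cells of a library summed to between 10421 and 326192 UMIs, which limits single genes to a few counts. Positions are from GENCODE M21. Trdc, Ptgdr2, Izumo1r, Adgre1 and Spink1 were listed but not measured.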

Additional observations from a re-analysis of the deposited data

Results flagged for a closer look

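A number of cells met the marker part of the T and NK rule but also held a UMI of C1qa, C1qb, C1qc, Havcr1, Slc12a1 or Pecam1, so that they entered no comparison. They formed 0.436% of the kept cells on day 4, 0.884% in library 1 of day 7 and 1.88% in library 2 of day 7, against 0.0652% in the control (exact 95% interval 0.0178 to 0.167). These libraries also had more macrophages than the control, at 6.65%, 25.1% and 26.4% of the kept cells. Whether such cells are joined cells, carry free RNA or express both sets of genes was not tested.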

How the results depend on the processing

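With at least 3 rule genes, the share of T and NK cells was 0.130% in the control, 0.280% on day 1, 0.391% on day 2, 0.281% on day 4, 1.83% on day 7, 0.0841% on day 11 and 0.0801% on day 14, the Cd3-positive share of them was 100% in the control and on days 1, 2, 4, 7 and 14, and the cycling share was 70.0% on day 1 and 32.5% on day 11. A Cd3-negative cell would then need all of Nkg7, Gzma and Il7r, so the rule almost fixed this Cd3-positive share. With mitochondrial UMIs limited to 25%, the T and NK share was 0.655% in the control and 0.255% on day 11. Without the excluded genes, it was 0.982% on day 4 and 0.243% on day 11. Thinning to 800 UMIs gave a cycling share of 13.6% on day 11. Leaving out each library of a day gave T and NK shares of 1.52% to 4.02% on day 7, 0.222% to 0.227% on day 11 and 0.0970% to 0.375% on day 14, Cd3-positive shares of 90.9% to 96.6% on day 7 and 100% on day 11, and cycling shares of 39.6% to 49.1% and 16.7% to 25%.

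Counts of called genes depended on the processing, and the cause was not tested. For day 7 against the control (292 genes) there were 24 in DESeq2, 14 with at least 3 rule genes, 13 among genes higher in T and NK cells, 157 among Cd3-positive cells, 7 without the 5% of cells with most UMIs, and 128 to 284 leaving out 1 library. For day 14 against day 7 (240) these settings gave 17, 33, 10, 2 and 0 genes in turn, 154 without a filter on low counts, and 157 to 224 leaving out 1 library. For day 11 against day 7 (134) they were 24, 9, 67, 65 and 21, with 70 without the filter, 83 with only these days in the fit, and 33 to 142 leaving out 1 library. For Cd3-negative against Cd3-positive cells (5) there were 1 in DESeq2, 1 without the filter, 0 among genes higher in T and NK cells, 15 without the cells with most UMIs and 21 without the excluded genes, and over 7 libraries (12) there were 5 to 17 leaving out 1 library. Over the named genes and the called genes of the lists, 432 of 646 alternatives for day 7 against the control counted as unchanged, 360 of 525 for day 14, 487 of 690 for day 11, 22 of 36 for the Cd3 classes and 87 of 112 for these over 7 libraries. Unchanged means that direction and call were kept. In fits that gave no p-value it means only that the direction held and the change stayed within its SE, so there no call was kept. Such fits occurred for day 7, day 14 and the Cd3 classes over 2 libraries. With at least 3 rule genes the log2 change reversed for Fxyd2 (0.84) and Ldhb (0.70) on day 7 and for Slc34a1 (-3.04) on day 14, none of them called there. The settings without the cells with most UMIs, and those without the excluded genes for called genes, were chosen after seeing the data. Abcg2 and Slc13a3 gave no value for day 14 in settings where both days had no count.

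With the library number as a replicate block, 83 genes were called for day 11 against day 7, all among the 134. The deviations of same-numbered libraries of days 7 and 11 correlated at 0.0125 over genes in T and NK cells and at 0.369 in all kept cells. The labels tie the numbers to no animal or batch, and with 2 numbers the correlation does not settle a pairing, so the block was not used in the reported fit. The other comparisons of days share no pair of numbers and could not be blocked. Day 11 had 12 T and NK cells per library, below the minimum of 20, so its planned fits with day 7 and day 14 were not run. The fit of the Cd3 classes with at least 3 rule genes could not be made.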

Other observations

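Outside the T and NK cells Cd8a was detected more often than Cd8b1. In the other cells Cd8a stood at 52.4 CPM on day 2 and 43.1 CPM on day 4, where Cd8b1 stood at 0.801 and 0.409 CPM. The day 7 libraries had Cd8a at 29.9 and 60.5 CPM in the other cells, the latter the highest of any library. These are sums over cells and do not show which cells held both genes. Over all libraries Cd8a was detected in 2.22% of the other cells and Cd8b1 in 0.353%.

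Barcodes with fewer than 500 genes, which were not kept, were present only in the 2 day 11 tables and also held T and NK markers. Of these barcodes 20 of 5362 (0.373%) and 22 of 5424 (0.406%) in the day 11 libraries met the marker rule.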
